A study of Rattus norvegicus with 9 samples.

Results

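The DNA methylation enzymes form a set of 7 genes chosen by name: the methyltransferases Dnmt1, Dnmt3a and Dnmt3b, the maintenance factor Uhrf1, and the dioxygenases Tet1, Tet2 and Tet3. Of these, 4 (Dnmt1, Uhrf1, Dnmt3a and Dnmt3b) were among the 17337 genes counted, and all 4 passed the filter on low counts that left 11337 genes to test. Tet1, Tet2 and Tet3 were not analysed here. RNA-seq counts came from rat cardiac fibroblasts, the matrix-making cells of the heart wall, at 3 developmental ages with 3 libraries each. The fetal group was taken at E18, the neonatal group at P1 and the adult group at 7 weeks of age. All groups came from Sprague Dawley rats and carried no labelled genetic change or treatment other than age. In every group primary cells (P0) had been grown until confluent in flasks, in DMEM with penicillin/streptomycin, fetal bovine serum and ascorbic acid, so the values describe cells after culture and not cells in the heart. No sorting step is named in the labels. Nothing in the labels states that the libraries of an age came from separate cultures or animals, so the p-values measure only the spread between these libraries.

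Methylation of cytosine in CpG pairs is copied after each round of DNA replication by Dnmt1, which Uhrf1 brings to hemimethylated DNA at the replication fork. Dnmt3a and Dnmt3b set methylation on DNA that did not carry it, Dnmt3b mainly in the early embryo and Dnmt3a also in differentiated tissues, and Tet enzymes oxidise the methyl group as a first step of its removal. Because copying is tied to replication, Dnmt1 and Uhrf1 are known to be expressed with the S phase genes of dividing cells, many of which are targets of E2F transcription factors.

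Promoter windows are shown because E2F words near the gene start are a sequence feature of many S phase genes. The windows, from RefSeq on assembly GRCr8, run from 250 bases before to 50 bases from the gene start on, and 3 of the 4 genes had at least 1. Each is written in the direction of the gene, and capitals mark matches on either strand to the E2F words TTTCCCGC, TTTCGCGC, TTTGCCGC and TTTGGCGC. The Dnmt1 window lies at chr8:27762792-27763091 on the minus strand, the Uhrf1 window shown is the third of 3 listed for that gene, at chr9:1222936-1223235 on the plus strand, and the Dnmt3a window lies at chr6:32598352-32598651 on the plus strand.
Dnmt1: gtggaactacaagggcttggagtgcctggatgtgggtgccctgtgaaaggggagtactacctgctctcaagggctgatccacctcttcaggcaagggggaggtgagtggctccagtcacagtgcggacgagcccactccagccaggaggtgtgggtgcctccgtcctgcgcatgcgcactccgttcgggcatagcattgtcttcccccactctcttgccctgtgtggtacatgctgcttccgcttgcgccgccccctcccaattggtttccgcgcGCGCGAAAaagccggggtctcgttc
Uhrf1: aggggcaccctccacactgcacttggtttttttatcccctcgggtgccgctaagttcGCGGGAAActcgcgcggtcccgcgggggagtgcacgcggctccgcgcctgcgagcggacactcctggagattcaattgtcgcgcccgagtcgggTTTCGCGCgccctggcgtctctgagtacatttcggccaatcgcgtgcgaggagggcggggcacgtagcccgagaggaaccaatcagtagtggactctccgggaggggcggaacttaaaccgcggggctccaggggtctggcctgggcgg
Dnmt3a: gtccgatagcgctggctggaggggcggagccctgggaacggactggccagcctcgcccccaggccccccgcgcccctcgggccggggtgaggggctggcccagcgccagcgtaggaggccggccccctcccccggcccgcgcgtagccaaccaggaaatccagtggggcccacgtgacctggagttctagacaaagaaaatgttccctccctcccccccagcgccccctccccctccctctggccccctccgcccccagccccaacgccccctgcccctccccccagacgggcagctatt

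The Dnmt1 window held 1 E2F word, TTTCGCGC read on the opposite strand, 26 bases after the gene start. The third Uhrf1 window held 2, TTTCCCGC on the opposite strand with its first base at -193 from the gene start and TTTCGCGC on the gene's strand at -99, and the other Uhrf1 windows held 0. The Dnmt3a window held 0, which says only that these letters are not in that window. Across all 33469 windows of that length 2.139% held at least 1 such word, and among the 19 windows of S phase genes the share was 52.63% (10 windows). The windows shown held 17 CpG pairs for Dnmt1, 35 for Uhrf1 and 21 for Dnmt3a. The median was 7 over all windows and 23 over the windows of S phase genes. The other Uhrf1 windows held 8 and 13 CpG pairs. A match is a description of the sequence and not evidence that a factor binds there.

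Before the results, the libraries themselves are described. Totals ran from 13392825 to 22850491 assigned counts, and the adult libraries were the shallowest. Fetal replicate 3 and adult replicate 1 stood apart from the other libraries of their age: the chi-square per degree of freedom over genes was 95.6 and 103 for pairs with fetal replicate 3, against 4.12 for the other fetal pair, and 27.1 and 45.2 for pairs with adult replicate 1, against 7.00 for the other adult pair. Of 10 fibroblast markers, 9 were above the floor of 3 counts in every library, at 6.91 CPM or more (counts per 1000000 assigned counts, with library sizes scaled by TMM). The exception was Col1a2, a collagen chain gene, which had only 1 to 21 counts in any library, while Col1a1 and Col3a1 were abundant. Its low counts were not read as absence, and their cause was not tested. In CPM, the fibroblast markers summed to 27553 to 53982 in fetal, 72006 to 78258 in neonatal and 27022 to 35570 in adult libraries. Of these 10 markers, 4 were higher in every neonatal library than at the other ages, and 4 were so in every adult library. Summed markers of other cells also differed between ages. The 14 macrophage markers summed to 15.1 to 76.9 CPM in the fetal group, 175 to 192 CPM in the neonatal group and 4621 to 6415 CPM in the adult group, with each of the 14 highest in the adult libraries, while Cd163 was at or below 3 counts in all fetal and neonatal libraries. The 12 cardiomyocyte markers summed to 7237 to 10899 CPM in the fetal group, 5129 to 5686 CPM in the neonatal group and 304 to 319 CPM in the adult group, where Myh6, Myh7, Myl2, Myl7, Csrp3 and Sh3bgr were at or below 3 counts. The 6 smooth muscle or pericyte markers summed to 952 to 1204, 1055 to 1057 and 156 to 354 CPM at the 3 ages in that order, the 4 epicardial markers to 58.3 to 62.0, 29.5 to 32 and 14 to 33 CPM, and the 8 endothelial markers to 11.2 to 15.7, 23.8 to 26.6 and 93.7 to 102 CPM. Single markers of these lists did not all move with their sum. From fetal to adult cells, 1 smooth muscle or pericyte marker was called higher and 3 lower (edgeR adjusted p under 0.05). For epicardial markers this was 1 and 3, and for endothelial ones 4 and 1, beside 34.9% and 35.5% of all tested genes. In the adult libraries Tnnt2 alone was at 303 to 316 CPM among the cardiomyocyte markers. Among the endothelial markers Tie1 was at 68.6 to 72.5 CPM there. The 7 lung epithelial markers summed to 229 CPM in fetal replicate 3, against 3.46 and 4.14 CPM in the other fetal libraries. The part that any of these cells had in the results below was not tested, and in bulk samples fewer cells of a type and less RNA per cell cannot be told apart.

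All 4 genes were most abundant in fetal and least abundant in adult cells. In each gene every fetal library lay above every neonatal library, and every neonatal library above every adult one. From fetal to adult cells the fitted level dropped to 48.3% for Dnmt1, 44.9% for Uhrf1, 38.9% for Dnmt3a and 28.2% for Dnmt3b. The test for any difference among the ages called all 4 genes (edgeR quasi-likelihood, Benjamini-Hochberg over all genes tested, adjusted p = 6.22e-05, 0.000247, 6.66e-06 and 0.000779 in that order), in a data set where 77.6% of all tested genes were called by the same test.

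**Figure D1:**
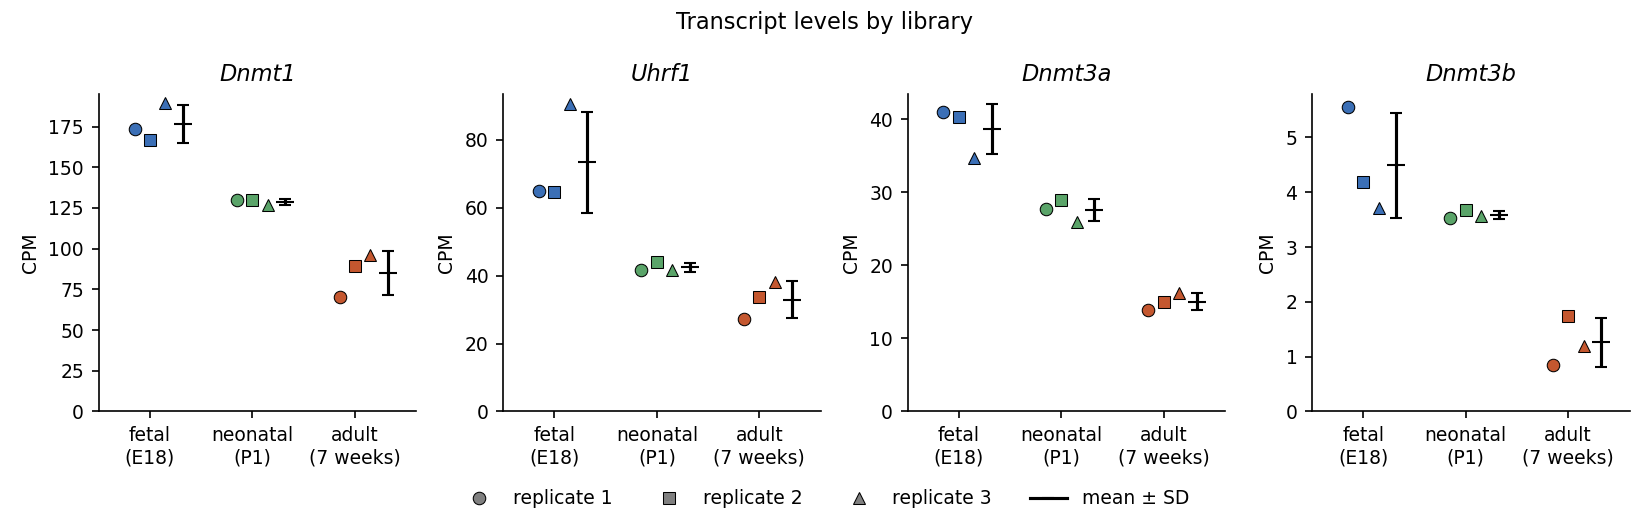
Level of each gene in CPM (vertical axes, linear, from 0) in the 3 libraries of each age, with symbols for the replicate number and bars for mean ± SD. The 3 ages do not overlap in any of the 4 genes. Of all tested genes, 57.4% do not overlap between fetal and neonatal libraries and 76.1% between neonatal and adult ones. Fetal replicate 3 is the highest fetal library for Dnmt1 and Uhrf1 and the lowest for Dnmt3a and Dnmt3b.

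Dnmt1, the maintenance methyltransferase (chromosome 8, 21922515 to 21968495, minus strand, rn6), was at 174, 167 and 189 CPM in fetal replicates 1, 2 and 3. It was at 130, 130 and 127 CPM in the neonatal and at 70.2, 89.4 and 96.2 CPM in the adult replicates. The neonatal libraries were nearly level with each other, and adult replicate 1 was the lowest of the 9. Uhrf1, which recruits Dnmt1 (chromosome 9, 10739306 to 10758403, minus strand, rn6), was at 65.0, 64.6 and 90.5 CPM in the fetal replicates. In the neonatal replicates it was at 41.7, 44.0 and 41.6 CPM, and in the adult replicates at 27.2, 33.6 and 38.0 CPM. Fetal replicate 3 lay well above the other fetal libraries for Uhrf1, and the highest adult library came close to the lowest neonatal ones without reaching them.

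Dnmt3a, the de novo methyltransferase of differentiated tissue (chromosome 6, 28235695 to 28340577, plus strand, rn6), was at 40.9, 40.3 and 34.7 CPM in the fetal replicates. It was at 27.7, 28.9 and 25.9 CPM in the neonatal and at 13.9, 15 and 16.3 CPM in the adult replicates. Here fetal replicate 3 was the lowest fetal library, the opposite of its place for Uhrf1. Dnmt3b, its embryonic relative (chromosome 3, 149131541 to 149170061, plus strand, rn6), was scarce at every age, with 103, 95 and 70 counts in the fetal, 64, 79 and 55 in the neonatal and 11, 24 and 16 in the adult replicates. In CPM these were 5.56, 4.19 and 3.72 for the fetal, 3.52, 3.67 and 3.56 for the neonatal and 0.842, 1.73 and 1.20 for the adult replicates. The fetal and neonatal values of Dnmt3b nearly met, whereas the adult values lay well below both and still above the level that 3 counts give in those libraries (0.217 to 0.230 CPM). None of the 4 genes shared exon bases with another gene in the annotation.

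Per kilobase of exon, the scale on which levels of different genes can be set side by side, Dnmt1 and Uhrf1 led at every age. Dnmt1 was at 29.8 ± 1.97 CPM per kilobase in fetal, 21.8 ± 0.307 in neonatal and 14.4 ± 2.28 in adult cells (SD, n = 3). Uhrf1 was at 29.0 ± 5.86, 16.8 ± 0.529 and 13 ± 2.16 CPM per kilobase at the same ages. The ranges of these genes overlapped on that scale in fetal and adult cells. Within a library Dnmt1 was above Uhrf1 in all neonatal (1.27 to 1.33 times) and adult (1.08 to 1.14 times) libraries, and in the fetal ones the ratio was 1.14, 1.1 and, in replicate 3, 0.895. Dnmt3a followed at 9.01 ± 0.801, 6.41 ± 0.349 and 3.5 ± 0.280 CPM per kilobase. Dnmt3b was last at 1.05 ± 0.224, 0.837 ± 0.0180 and 0.294 ± 0.105 CPM per kilobase. Dnmt3a lay below Dnmt1 and Uhrf1, and Dnmt3b below Dnmt3a, in every library.

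**Figure D2:**
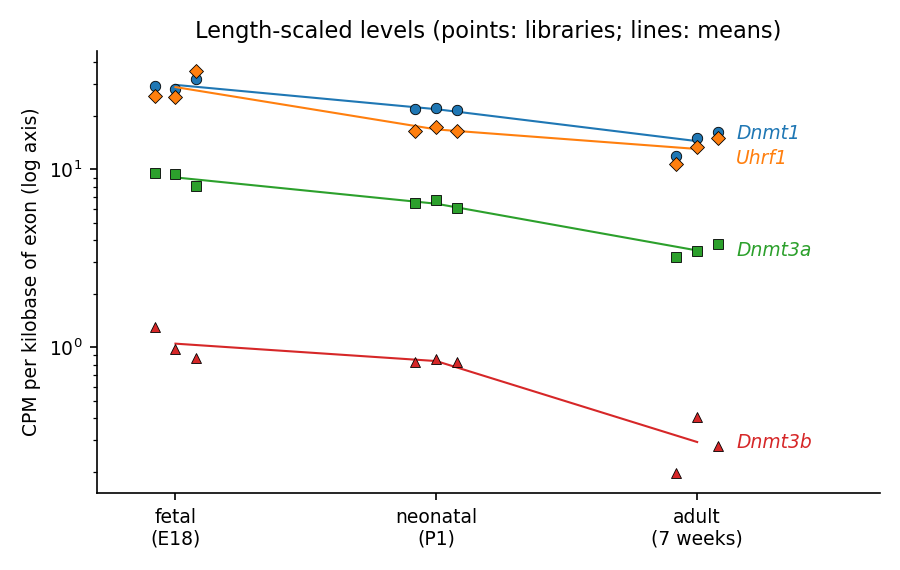
Level per kilobase of exon (vertical axis, logarithmic) of the 4 genes at the 3 ages, with 1 point for each library and lines through the means. Dnmt1 and Uhrf1 lie together at the top, Dnmt3a runs from 9.01 in fetal to 3.5 in adult cells, and Dnmt3b lies lowest with its steepest part between neonatal and adult cells.

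The comparison of neonatal with fetal cells asks what differs over the days around birth. Dnmt1, Uhrf1 and Dnmt3a fell and Dnmt3b was not called, so that 3 of 4 genes passed the test, all lower, where 36.3% of all tested genes passed it in either direction and 18% were lower. Dnmt1 fell by 0.45 on the log2 scale (SE 0.107, edgeR adjusted p = 0.0105). This call was lost without neonatal replicate 3 (adjusted p = 0.0506). Uhrf1 had the largest of these differences and fell by 0.79 (SE 0.152, edgeR adjusted p = 0.00412). Dnmt3a fell by 0.49 (SE 0.0953, edgeR adjusted p = 0.00435). The log2 difference of Dnmt3b was -0.32 (SE 0.252, edgeR adjusted p = 0.339), on 55 to 103 counts in each library. The median log2 difference of all tested genes was -0.0053. When tested against a log2 difference of 0.5 in place of 0, 0 of the 4 genes passed in this comparison.

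Adult cells were next set against neonatal cells, which covers the weeks after birth. Dnmt1, Dnmt3a and Dnmt3b fell and Uhrf1 was not called. These 3 of 4 genes stand beside 63.5% of all tested genes called in either direction and 31.8% called lower. Dnmt3b fell by 1.5 on the log2 scale (SE 0.285, edgeR adjusted p = 0.00134), the largest difference of the 4. Dnmt3a fell by 0.87 (SE 0.100, edgeR adjusted p = 5.95e-05), and Dnmt1 by 0.60 (SE 0.108, edgeR adjusted p = 0.00100). The log2 difference of Uhrf1 was -0.37 (SE 0.155, edgeR adjusted p = 0.0641). Uhrf1 was close to the threshold, and it passed when fetal replicate 3 was left out (edgeR adjusted p = 0.00677) or adult replicate 3 was (0.0357). The Dnmt1 value ran from -0.69 to -0.48 and the Dnmt3b value from -1.81 to -1.28 over the fits that left out libraries.

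Over the whole span, from fetal to adult cells, all 4 genes fell, in a comparison that called 70.5% of all tested genes, 35.5% lower. This comparison uses the same fetal and adult libraries as the other comparisons and is not separate evidence. Dnmt1 fell by 1.05 on the log2 scale (SE 0.108, edgeR adjusted p = 2.03e-05) and Uhrf1 by 1.15 (SE 0.155, edgeR adjusted p = 0.000116). Dnmt3a fell by 1.36 (SE 0.0998, edgeR adjusted p = 2.19e-06), and Dnmt3b by 1.82 (SE 0.283, edgeR adjusted p = 0.000298). The groups of the 4 genes did not overlap, as was so for 71.8% of all tested genes in this comparison (35.8% with the adult libraries lower). The same held for 57.4% of genes (28.1% with the later age lower) from fetal to neonatal cells, and for 76.1% (38.5%) in the comparison of adult with neonatal ones. With fetal replicate 3 and adult replicate 1 both left out, an alternative chosen after seeing the data, the values were -0.87 for Dnmt1 and -0.86 for Uhrf1 and all 4 genes were still called.

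**Figure D3:**
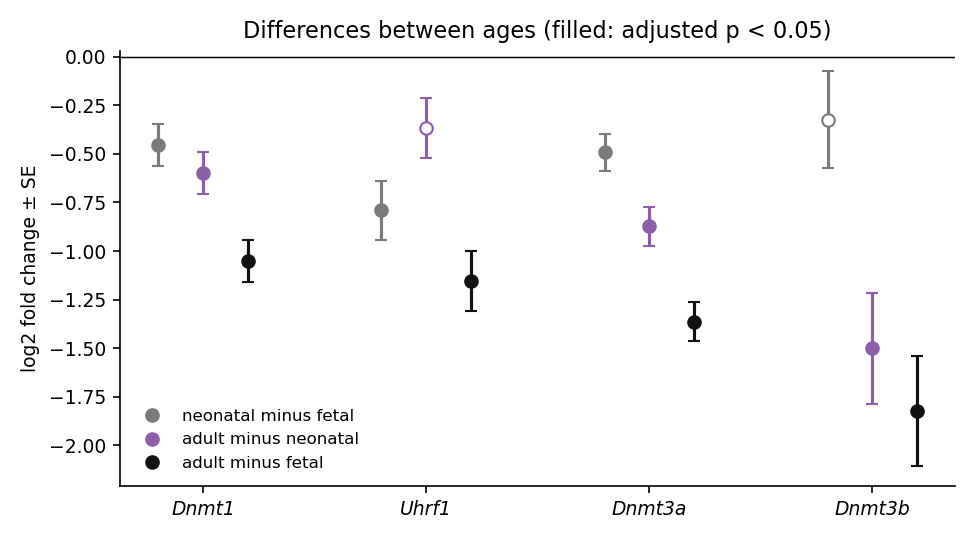
Log2 fold change ± SE (vertical axis) of each gene in the 3 comparisons of ages, with filled points for adjusted p under 0.05. Uhrf1 has its larger step between fetal and neonatal cells (-0.79) and Dnmt3b its larger step between neonatal and adult cells (-1.5).

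The make-up of the methyltransferases is given as shares. Of the summed counts per kilobase of Dnmt1, Dnmt3a and Dnmt3b, the fetal libraries had 74.7% ± 2.94 in Dnmt1, the neonatal ones 75.0% ± 0.686 and the adult ones 79.0% ± 1.27. Dnmt3a took 22.6% ± 2.52, 22.1% ± 0.708 and 19.4% ± 1.52, and Dnmt3b took 2.63% ± 0.562, 2.88% ± 0.0618 and 1.6% ± 0.464 (SD, n = 3). The ratio of Dnmt1 to Dnmt3b was higher in every adult than in every other library, by 0.82 on the log2 scale against fetal and 0.96 against neonatal cells. Its exact two-sided permutation p was 0.1 in both, the smallest that 3 libraries against 3 allow (0.2 after adjustment over the 12 ratio tests made). Adult replicate 2, with 24 counts of Dnmt3b, was at a per kilobase ratio of 37.3, just above fetal replicate 3 at 36.8. The ratio of Dnmt1 to Dnmt3a was higher in adult than in neonatal cells by 0.26 with no overlap (exact permutation p = 0.1), whereas adult and fetal libraries overlapped, at a difference of 0.30 (exact permutation p = 0.2). The ratio of Dnmt1 to Uhrf1 was above the fetal range in the neonatal libraries (log2 difference 0.32) and below the neonatal range in the adult ones (-0.23), each without overlap (exact permutation p = 0.1). Between adult and fetal cells it differed by 0.09 with overlapping libraries (exact permutation p = 0.8).

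The levels were next set against those of replication genes in the same library. The mean log2 CPM of 24 tested S phase genes was 5.44, 5.41 and 5.88 in fetal replicates 1, 2 and 3. It was 5.15, 5.14 and 5.12 in the neonatal and 4.95, 5.15 and 5.28 in the adult replicates, so the adult libraries spanned the neonatal ones. Dnmt1 lay above that mean of its own library by 1.88 ± 0.17 in fetal, 1.87 ± 0.01 in neonatal and 1.28 ± 0.08 in adult cells (log2 CPM difference, SD, n = 3). The adult values of Dnmt1 (1.19 to 1.33) were below all others (1.68 to 2.0). In the fetal libraries Uhrf1 kept a nearly constant distance from the S phase mean, at 0.58, 0.60 and 0.62 above it, with fetal replicate 3 the highest for both. Its mean distance was 0.60 ± 0.02 in fetal, 0.27 ± 0.04 in neonatal and -0.09 ± 0.08 in adult cells, and the 3 ages did not overlap. Dnmt3a was at -0.31 ± 0.39, -0.35 ± 0.07 and -1.21 ± 0.06, with fetal replicate 3 alone at -0.76. Dnmt3b was at -3.40 ± 0.51, -3.25 ± 0.03 and -4.72 ± 0.40, and its adult libraries again lay below all others. The separation of the adult libraries depended on the reference. Against the mean of the 12 G2/M genes, fetal replicate 3 lay among or below the adult libraries for Dnmt1, Dnmt3a and Dnmt3b. Dnmt1 was then at 0.84 in fetal replicate 3 and at 0.96 to 1.06 in the adult libraries, and Dnmt3a at -1.60 and at -1.51 to -1.37. Dnmt3b was at -4.78 in fetal replicate 3 and at -5.24 to -4.54 in the adult libraries. Uhrf1 was at -0.22 in fetal replicate 3, within its neonatal range (-0.31 to -0.21) and above its adult one (-0.41 to -0.28), and these ranges overlapped each other. The other fetal libraries and the neonatal ones stayed above the adult libraries for Dnmt1, Dnmt3a and Dnmt3b. These distances carry no test of their own.

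**Figure D4:**
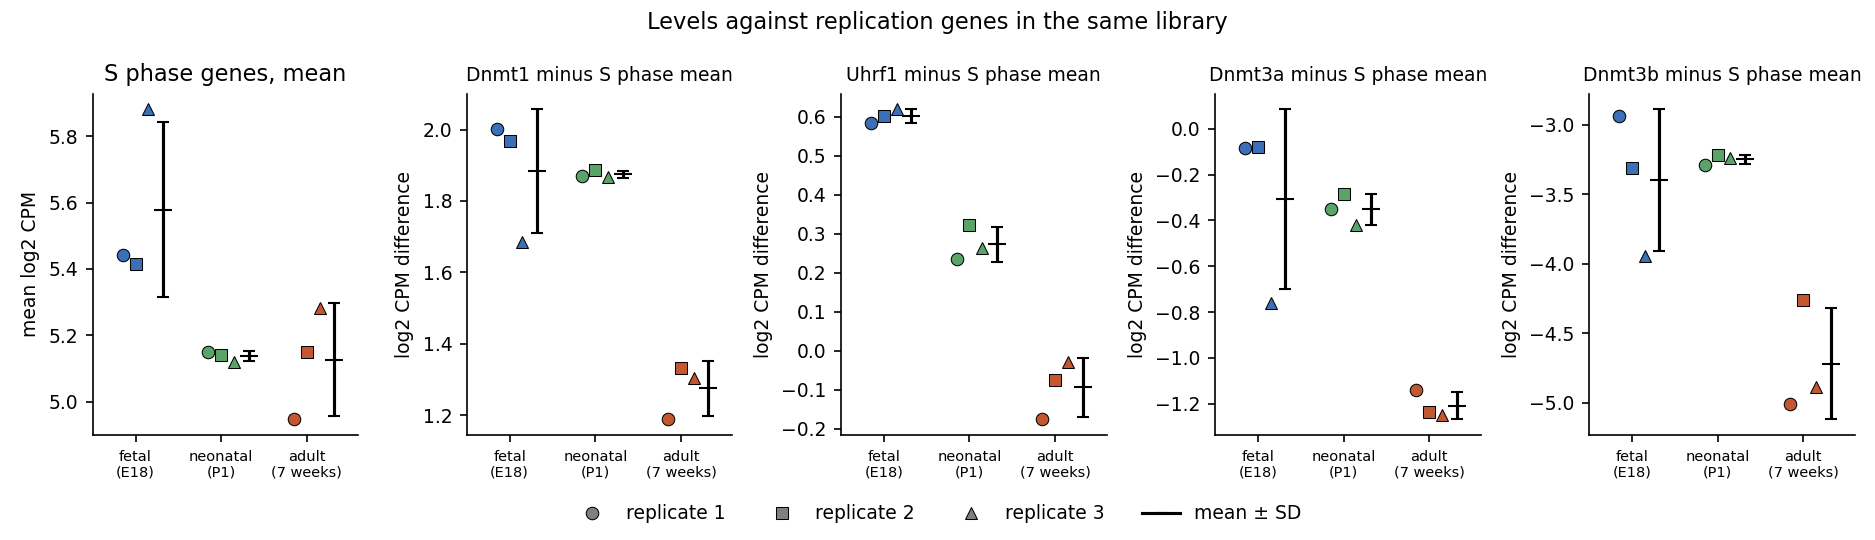
Mean log2 CPM of the S phase genes (left) and the distance of each gene from that mean in the same library (log2 CPM difference, vertical axes with their own ranges), with symbols for replicate numbers and bars for mean ± SD. The adult values of all 4 genes lie below the fetal and neonatal ones. The S phase mean of the adult libraries (4.95 to 5.28) spans the neonatal values. Against G2/M genes, fetal replicate 3 lay among or below the adult libraries for Dnmt1, Dnmt3a and Dnmt3b. For Uhrf1 the neonatal and adult ranges overlapped there.

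In the single counts behind that mean, 16 of 24 S phase genes were called lower and 0 higher between neonatal and fetal cells (median log2 difference -0.47). Of all tested genes, 18% were called lower and 18.3% higher there. Without neonatal replicate 1, 2 or 3 the count of lower S phase genes was 8, 7 or 5. Between adult and neonatal cells 6 S phase genes were called lower and 4 higher (median 0.08), where 31.8% and 31.6% of all tested genes were. Without neonatal replicate 2 or adult replicate 2 the lower count was 4, and without both fetal replicate 3 and adult replicate 1 the higher count was 11. From fetal to adult cells 13 S phase genes were called lower and 0 higher (median -0.46), where 35.5% and 34.9% of all tested genes were. The higher count was 4 when fetal replicate 3 was left out, 2 when adult replicate 1 was, and 6 when both were. Pola1, the catalytic subunit of the primase-bound polymerase, fell by 0.86 between neonatal and adult cells (edgeR adjusted p = 0.000142), as did the helicase subunit Mcm4 by 0.60 (0.000281), while Gins2, another helicase component, rose by 0.77 (0.000512) and Rrm2, which makes deoxynucleotides, by 0.76 (0.00561). Of 12 G2/M genes 5 were called lower and 1 higher (2 when fetal replicate 3 was left out) in that comparison. Of all tested genes, 31.8% were lower and 31.6% higher there. The lower G2/M genes included Cenpf (log2 -1.14, edgeR adjusted p = 0.00117) and Top2a (log2 -0.89, edgeR adjusted p = 0.00293). Between the same ages the log2 difference of Dnmt1 was -0.60. The median was 0.08 for the 24 S phase genes, 14 of which were not called, and -0.25 for the 12 G2/M genes. Between neonatal and fetal cells 7 G2/M genes were called lower and 0 higher (median -0.63), where 18% and 18.3% of all tested genes were. The lower count ran from 2 to 10 when libraries were left out. From fetal to adult cells 8 were called lower and 0 higher (median -0.89), where 35.5% and 34.9% of all tested genes were. The part of cell division in the fall of Dnmt1 was not tested.

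The genes whose log2 CPM most resembled each enzyme over the 9 libraries are given as a description, since the points share libraries and an age trend. Among 8322 genes with a mean of at least 10 CPM, Dnmt1 was most like Tdrd7 (Pearson r = 0.996), Sec13 (0.994) and Tnrc6a (0.994). Uhrf1 was most like Cbx5 (0.997), the gene of heterochromatin protein HP1 alpha, followed by Amd1 (0.995) and Hn1l (0.994). Dnmt3a was most like Helz (0.997), Prdx3 (0.996) and Lmbrd2 (0.996). Dnmt3b was most like Zfp180 (0.989), Slc35e1 (0.988) and Gpt2 (0.987), among 8323 genes. Among the enzymes, Dnmt1 and Dnmt3a had the highest r (0.962) and Uhrf1 and Dnmt3b the lowest (0.759). Cbx5 was at 58.6 ± 11.7 CPM in fetal, 35.1 ± 0.56 in neonatal and 28.3 ± 3.83 in adult cells (SD, n = 3), with its high fetal value in the same library as that of Uhrf1.

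Of the listed partners and regulators of the methyltransferases, whether for or against methylation, the greater number fell between fetal and adult cells. Of 16 such genes counted, 14 were tested. From fetal to adult cells 9 were called lower and 0 higher, beside 35.5% and 34.9% of all tested genes, with a median log2 difference of -0.70 against -0.013 for all tested genes. Nsd1, a histone methyltransferase whose mark recruits Dnmt3a, was at 177 ± 11.3 CPM in fetal, 132 ± 7.66 in neonatal and 53.7 ± 1.40 in adult cells (SD, n = 3; adult against fetal log2 -1.72, edgeR adjusted p = 7.09e-08). Qser1, which protects regulatory DNA from de novo methylation, fell by 2.11 between the same ages (edgeR adjusted p = 2.73e-07). In contrast to Uhrf1, its paralog Uhrf2 was at 76.7 ± 15, 64.4 ± 2.09 and 72.9 ± 8.70 CPM and was not called (adult against fetal log2 -0.07, edgeR adjusted p = 0.643). Cdca7l, from the family that works with the remodeller Hells, was at 8.48 ± 1.08, 12.6 ± 1.13 and 9.58 ± 2.33 CPM, and Ehmt2, a histone methyltransferase of repressed chromatin, was at 135 ± 18.1, 129 ± 6.63 and 143 ± 6.54 CPM. Neither was called between adult and fetal cells. Dnmt3l, the inactive partner of the de novo enzymes, had at most 1 count in any library. Uhrf2, Dnmt3l and Cdca7 were singled out after their values were seen.

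Of 19 tested genes around the removal of methylation, 7 were called higher and 4 lower from fetal to adult cells (median log2 difference 0.02), beside 34.9% and 35.5% of all tested genes, a balance that turned to 5 higher and 7 lower with upper quartile scaling and to 5 higher and 6 lower with library size alone. Tdg, the glycosylase that excises oxidised cytosines, fell by 0.96 (edgeR adjusted p = 3.84e-05), and Idh2, which makes the cofactor used by Tet enzymes, fell by 1.31 (4.47e-07). The other Idh gene listed, Idh1, was called higher (log2 0.23, edgeR adjusted p = 0.00669). Idh1 was singled out after its values were seen. Gadd45a, a stress response gene, was at 21.2 ± 0.697 CPM in fetal, 16.6 ± 0.560 in neonatal and 51.2 ± 12.4 in adult cells (adult against fetal log2 1.27, edgeR adjusted p = 5.12e-05). Apobec1, a cytidine deaminase, was at 0.159 ± 0.276, 0.307 ± 0.164 and 20.05 ± 2.36 CPM (edgeR adjusted p = 1.47e-05), with all its fetal counts in replicate 3, in the same adult libraries in which the macrophage markers were high.

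Of 7 tested readers of methylated DNA, 4 were called higher and 2 lower from fetal to adult cells, where 34.9% of all tested genes were called higher and 35.5% lower (2 and 2 with library size alone, and 1 lower without adult replicate 2). Mbd2, which brings a repressor complex to methylated DNA, was at 86.3 ± 2.63 CPM in fetal, 111 ± 3.32 in neonatal and 136 ± 3.08 in adult cells (SD, n = 3; log2 0.65, edgeR adjusted p = 5.90e-06). The zinc finger protein Zbtb4 rose by 0.88 (edgeR adjusted p = 0.000435) and its relative Zbtb38 fell by 0.89 (0.000154). In the methyl donor cycle, which supplies the methyl group, 2 of 12 tested genes were called higher and 7 lower (median log2 difference -0.32), beside the same shares of all tested genes. Mtr, methionine synthase, fell by 2.08 (edgeR adjusted p = 3.84e-07) and Shmt1, of the folate cycle, by 0.33 (0.00196). Nnmt, which spends the donor on nicotinamide, rose by 0.66 (edgeR adjusted p = 0.0106) and Ahcyl2 rose by 0.39 (0.00499).

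**Figure D5:**
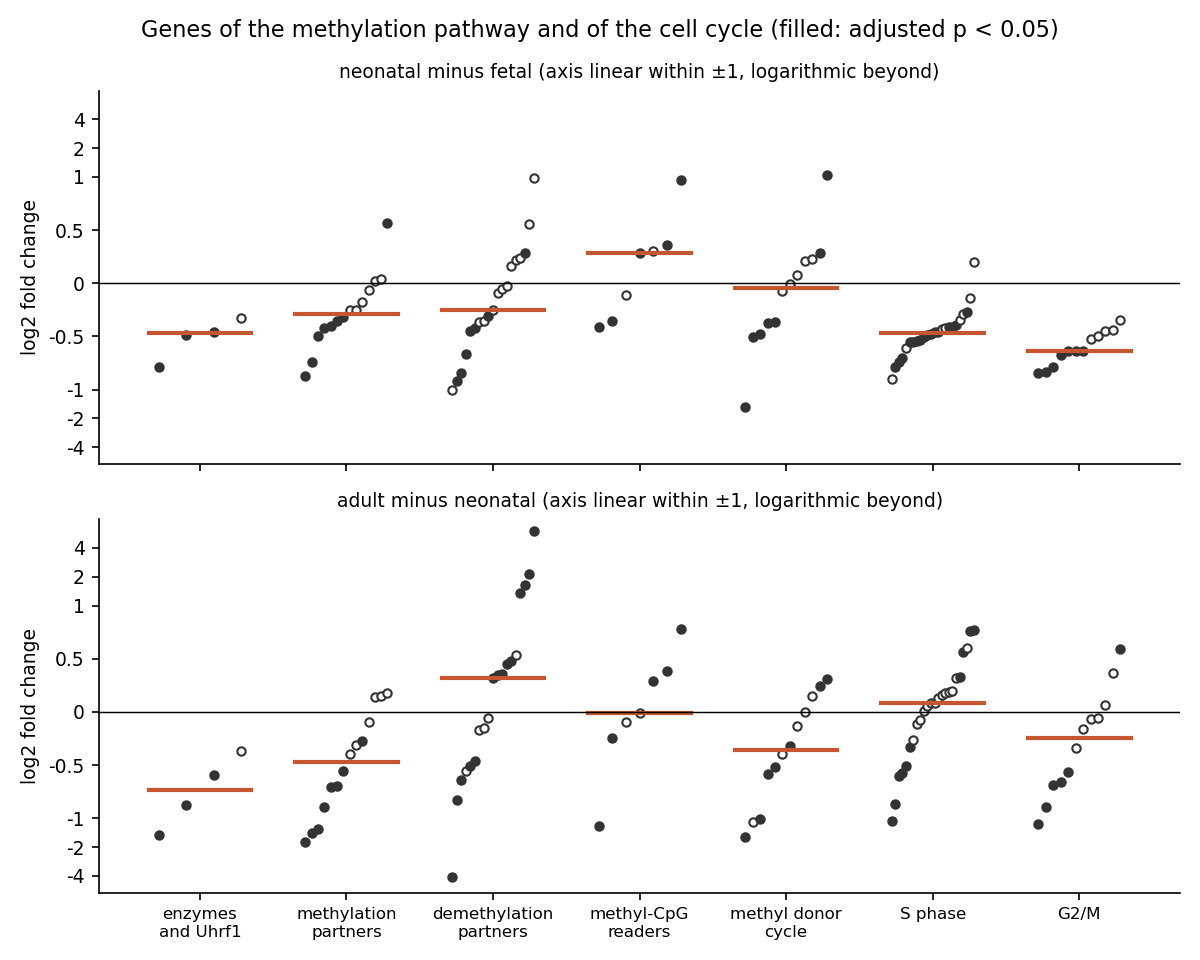
Log2 fold change of each tested gene (vertical axes, linear within 1 of 0 and logarithmic beyond) in 7 lists, for neonatal minus fetal and adult minus neonatal cells, with filled points for adjusted p under 0.05 and bars for list medians. The medians of the S phase genes are -0.47 and 0.08 and those of the G2/M genes -0.63 and -0.25. The enzymes with Uhrf1 lie below 0 in both panels.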

How the data were processed

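The authors deposited raw gene counts for the 9 libraries, made with featureCounts against an rn6 annotation, per the file headers, with only the annotation and output options given; by that program's defaults strand was not used and reads mapped to several places were left out, so levels of genes with near-identical copies would be understated. FastQC, Trimmomatic 0.39, STAR 2.5.2b, Subread 1.6.3 and DESeq2 are named in the submitters' processing notes. The normalized table that was also deposited was not used.

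Genes were filtered with filterByExpr by age, scaled by TMM and fitted with edgeR 4.0.16 in R 4.3.3 (robust quasi-likelihood, all 9 libraries, age only). Benjamini-Hochberg adjustment ran over the 11337 genes tested, with a threshold of 0.05. SE is the log2 fold change divided by the root of the F statistic. Log2 CPM used a prior count of 2, and 3 counts was the floor. Counting error alone underlies that floor.

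The members, the gene lists and the marker lists were chosen with earlier results of these data known. Named list genes are the 2 with the smallest adjusted p for any age difference in each direction of adult minus fetal; a gene that this rule names is not reported here. The E2F words were chosen before the windows were read. The code was tested on simulated data. No pair of libraries agreed within counting error. Alternatives were DESeq2 1.42.0, other scalings, filters and tests, a replicate block, and leaving out libraries.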

Additional observations from a re-analysis of the deposited data

How the results depend on the processing

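Over 20 alternatives, 237 fold changes of the 4 genes were recomputed: 225 kept their direction and their side of the threshold, 5 lost the call, 7 gained it and 0 changed sign. Of the 7 gained, all were Uhrf1 between adult and neonatal cells, with upper quartile scaling (edgeR adjusted p = 0.0413), no filter (0.0491), the replicate block (0.0294), only the 2 ages compared (0.0168), and without fetal replicate 3, adult replicate 3, or fetal replicate 3 with adult replicate 1 (0.00416). Its log2 value ran from -0.48 to -0.25 in the fits that left out libraries. Testing against a log2 difference of 0.5 left 0 of 4 genes called between neonatal and fetal cells and lost Dnmt1 between adult and neonatal cells (edgeR adjusted p = 0.176). It called 1117, 4830 and 3762 of all genes (neonatal against fetal, adult against fetal, adult against neonatal), compared with 4114, 7987 and 7197. Without neonatal replicate 1, 2 or 3, 2607, 2476 or 2575 genes were called between neonatal and fetal cells; the lower number of libraries is part of that setting, and other causes were not tested. With library size alone the median log2 difference of all genes was -0.18 between neonatal and fetal cells, against -0.0053. Between adult and fetal cells it was -0.12, against -0.013. Of the calls between neonatal and fetal cells 29.0% were then higher, against 50.4%, and Dnmt1 was at -0.63 in that comparison. Without division by exon length the Dnmt1 share was 80.3% for fetal, 80.6% for neonatal and 83.9% for adult libraries. A filter of 10 CPM in 3 libraries removed Dnmt3b from the test. Replicate numbers did not pair the libraries: deviations of the 9 same-numbered pairs correlated at -0.0649 to 0.0521, and pairs with different numbers at -0.0551 to 0.0797. With the replicate block 3, 4 and 4 of the 4 genes were called in the same order of comparisons. Dnmt3b had 55 to 103 counts in the libraries compared between neonatal and fetal cells; whether depth set its missing call there was not tested.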

Other observations

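Genes of the germ line that are kept silent by promoter methylation in body cells were listed as a readout of lost methylation. Of 12 such genes counted, 0 passed the filter on low counts, and 7 (Dazl, Ddx4, Mael, Sycp1, Tex101, Stk31 and Brdt) were at or below 3 counts in every library. The highest value of any of them in any library was 9 counts, for Asz1. These counts are at the limit of detection at all 3 ages, so no difference between ages was readable from them.

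After the Dnmt1 window had been read, it was searched for the palindrome at the core of the NRF1 motif. It lies at -83 from the gene start and is found in 0.8515% of all windows and in 0 of the 19 windows of S phase genes.

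Hells, which encodes a remodeller needed for DNA methylation, was listed at 0 counts in every library and was not read as absent. By the defaults of the counting program, reads mapped to several places were left out. Whether this affected Hells was not tested.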
